A study of Rattus norvegicus with 6 samples.

Results

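A group of 8 microRNAs linked to leukocytes and inflammation was followed in the rat left ventricle: miR-142-3p, miR-142-5p, miR-223, miR-150, miR-155, miR-146a, miR-146b and miR-342-3p. They were chosen by name, as the assays whose identifier carries exactly one of these names, and made up 8 of the 584 miRNA assays on the PCR cards. Assays for the passenger strands were not among them. The study set 3 OLETF rats, an inbred strain with obesity and type 2 diabetes that lacks the cholecystokinin A receptor, against 3 rats of its non-diabetic control strain, LETO. The OLETF samples are labelled OLETF1, OLETF2 and OLETF3, and the LETO samples LETO2, LETO3 and LETO4. All 6 rats were anaesthetised and ventilated before the heart was frozen, and their age and sex are not given in the labels. Every diabetic rat was OLETF and every control LETO, so diabetes, obesity and strain cannot be told apart. Nothing in the labels tells whether litters or days were shared, so p-values measure only the spread between these 6 samples, which may be technical.

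A microRNA is a short RNA that guides a silencing complex to messenger RNAs, chiefly through its seed, the bases 2 to 8 from its 5′ end. miR-142 is made almost only in blood-forming cells and their progeny, miR-223 mainly in the myeloid line, and miR-150 and miR-342-3p at high levels in lymphocytes. miR-155 is cut from the transcript of the Mir155hg gene and is switched on in activated lymphocytes and macrophages. miR-146a is induced through NF-kappaB, and miR-146a and miR-146b dampen Toll-like receptor signalling by targeting Traf6 and Irak1. A healthy ventricle holds resident macrophages and circulating blood cells beside its muscle, vessels and fibroblasts, and miR-146a, miR-150 and miR-155 are not confined to leukocytes.

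The mature sequences show which of these assays read related molecules. RefSeq, on the rat build GRCr8, held a mature rat sequence for 7 of the 8. They are shown 5′ to 3′ with the seed in capitals.
miR-142-3p: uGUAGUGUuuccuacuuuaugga
miR-142-5p: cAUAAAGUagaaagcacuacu
miR-223: uGUCAGUUugucaaauacccc
miR-155: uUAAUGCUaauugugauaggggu
miR-146a: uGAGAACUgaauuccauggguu
miR-146b: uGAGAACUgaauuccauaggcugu
miR-342-3p: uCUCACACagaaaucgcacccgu
These 7 hold 6 distinct seeds. Only miR-146a and miR-146b share one (GAGAACU), and no other rat mature miRNA in the table carried any of the 6. Over the 22 bases of miR-146a, the pair was identical at 20 and differed by G18A and U21C, counted from the 5′ end with miR-146a first. The 2 miR-142 assays read opposite arms of 1 hairpin, so they share a gene and a precursor but not a seed.

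The hairpin of miR-142 lies at chr10:73055104-73055190 (plus strand), within the span of the protein-coding gene Tspoap1. That of miR-155 lies at chr11:37261114-37261178 (plus strand), within the lncRNA gene Mir155hg. The hairpin of miR-342 lies at chr6:133329655-133329753 (plus strand), within the spans of Evl, a regulator of the actin cytoskeleton, and of the lncRNA gene LOC102555052. The hairpin of miR-223 lies at chrX:65151383-65151492 (plus strand), within the span of the lncRNA gene LOC120099372. That of miR-146a lies at chr10:28349996-28350090 (minus strand), within the span of the lncRNA gene LOC134480673. That of miR-146b lies at chr1:255144860-255144947 (plus strand), within the span of the protein-coding gene C1h10orf95. The miR-150 gene spans chr1:104741487-104741571 in the RefSeq gene table. The gene table gives spans only, so exon and intron were not assigned. The assays carry mouse names, and the sequences above are the rat ones.

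All but miR-142-5p, 7 of the 8, were measured in all 6 ventricles, and they covered a wide range of levels. The unit was the threshold cycle (Ct), the number of PCR cycles needed to reach a set fluorescence, so abundant RNAs have low Ct values, and at full PCR efficiency a step of 1 cycle equals 1 log2 unit. An assay counted as measured at a Ct under 35. All 8 assays sat in single wells on card A, the first of the 2 cards, where 122 assays were measured in every sample. Over those 122, ranked from the lowest mean Ct, miR-150 stood at rank 5 and miR-146a at rank 9. miR-223, miR-146b and miR-342-3p stood at ranks 26, 32 and 37, and miR-155 and miR-142-3p at 65 and 66. Assays can differ in efficiency, so the order between assays is approximate.

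Within a sample the Ct of 2 assays can be set against each other without any reference. miR-150 came before miR-146a in 6 of 6 samples, by 1.00 ± 0.45 cycles (SD, n = 6), and miR-146a before miR-223 in 6 of 6, by 3.40 ± 0.23 cycles. The next neighbours did not differ beyond their spread. miR-223 came before miR-146b in 4 of 6 samples (0.363 ± 0.483 cycles), and miR-146b before miR-342-3p in 5 of 6 (0.285 ± 0.360 cycles). A clear step of 2.55 ± 0.522 cycles, present in 6 of 6 samples, separated miR-342-3p from miR-155. miR-155 and miR-142-3p had no fixed order, with miR-155 ahead in 3 of 6 samples (0.0677 ± 1.27 cycles). For scale, duplicate wells on card B gave a technical SD per well of 0.486 cycles (189 pairs).

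**Figure D1:**
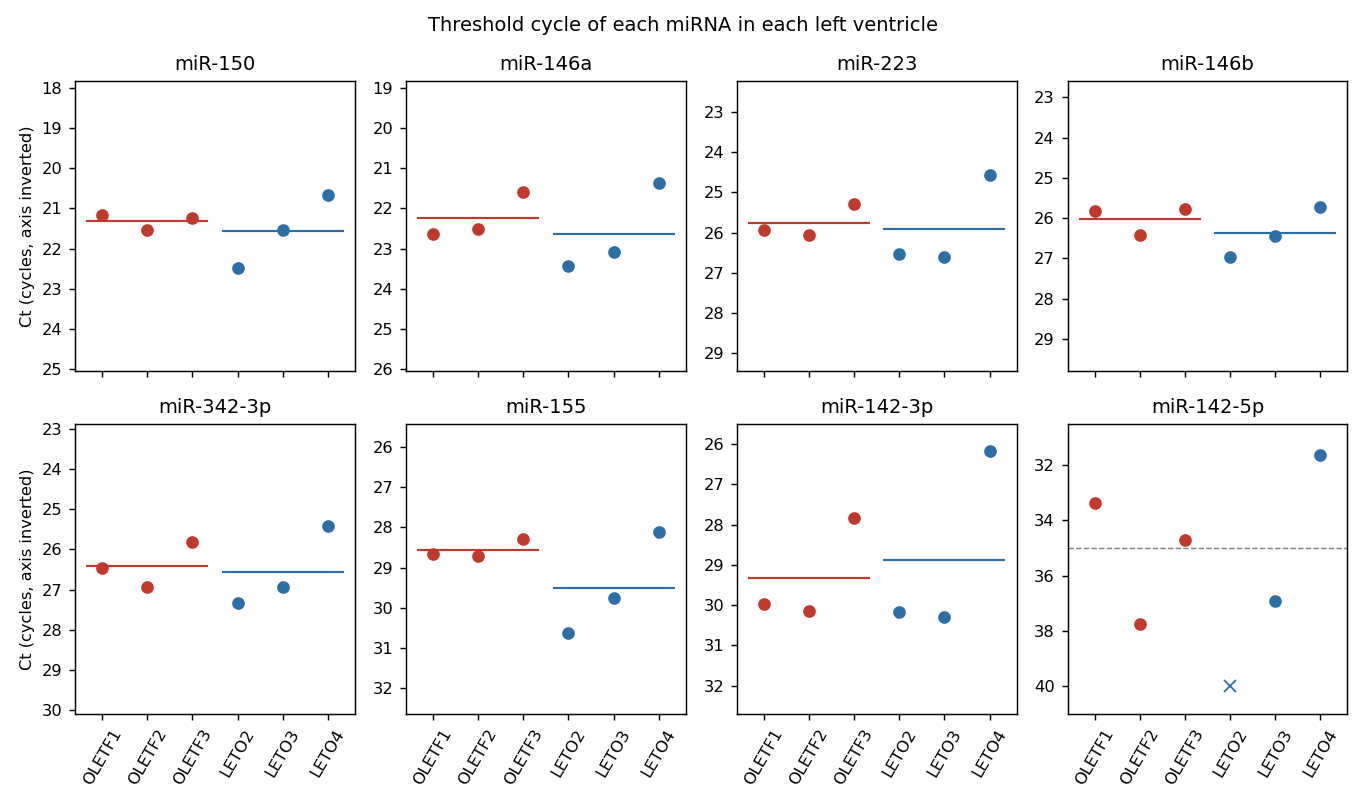
Threshold cycle (y axis, inverted so that more RNA is higher) of each of the 8 miRNAs in each sample (x axis), OLETF in red and LETO in blue. Lines are group means, the dashed line for miR-142-5p is the limit of 35 and the cross at 40 is an undetermined well. LETO4 has the lowest Ct of all samples for every miRNA shown.

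Facts of the whole series frame these values. Of 584 assays, 197, 200 and 228 were measured in OLETF1, OLETF2 and OLETF3, against 207, 202 and 292 in LETO2, LETO3 and LETO4. Heart muscle markers (7 of 7 assays, among them miR-1, miR-133a and miR-499), endothelial miR-126-3p and miR-126-5p, smooth muscle miR-143 and miR-145, and the fibroblast list (3 of 3) were measured in all samples. Of the erythroid markers, miR-486 was measured in 6 samples and miR-451 in LETO4 alone. LETO4 stood apart: the median Ct of the 122 card A assays was 26.5 there, against 28.9, 29.0 and 28.0 in the OLETF samples and 30.0 and 29.5 in LETO2 and LETO3. U6, the small nuclear RNA that served as endogenous control, had a Ct on card A of 17.6, 17.9 and 18.2 in OLETF and 19.2, 17.5 and 17.9 in LETO. U6 thus did not share the shift of LETO4, and the choice between U6 and the card median as reference decides how that sample is read.

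None of the miRNAs of the group differed between OLETF and LETO ventricles past the threshold, and miR-155 had the highest difference among them under both references. Levels were taken as minus the difference between the Ct and either the mean of the 4 U6 wells or the median Ct of the card, on the log2 scale, and compared with limma over the 193 assays that had at least 2 measured samples in each strain. At an adjusted p under 0.05, 0 of the 7 tested members passed with U6, against a background of 0.0% of 193 assays, and 0 of 7 with the card median, again against 0.0%. At an unadjusted p under 0.05 the members also numbered 0, against 1.04% of assays with U6 and 6.22% with the card median (limma). The groups did not separate for any of the 7 with either reference, where 0.0% of the 162 assays measured in all samples separated with U6. With the card median 13.6% of the 162 separated (4.32% with OLETF higher and 9.26% with OLETF lower), and 13.9% of the 122 on card A. In ventricle homogenate, more leukocytes and more of a miRNA per cell cannot be told apart.

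Relative to U6, 3 of the 7 had a positive difference and 4 a negative one, with a median of -0.012 log2 units, against a positive difference in 19.2% of all tested assays and a median of -0.60. Relative to the card median, 6 of 7 were positive with a median of 0.19, against 32.6% of all tested assays and a median of -0.31. Both contrasts with the other assays shrank without LETO4. Without it, 7 of 7 were positive relative to U6 with a median of 0.41, against a median of 0.38 over the 178 assays then tested. Relative to the card median 1 of 7 was positive without it, with a median of -0.33, against -0.26 over all tested assays. With OLETF3 left out as well, 5 of 7 were positive relative to U6 with a median of 0.040, against -0.24 over 163 assays. Relative to the card median 1 of 7 was then positive, with a median of -0.27, against -0.35. The share of all assays with a positive difference was not counted in these fits. The summed level of the 7 relative to U6 was -2.97, -2.90 and -2.07 log2 units in OLETF1, OLETF2 and OLETF3, and -2.54, -3.55 and -1.95 in LETO2, LETO3 and LETO4. The OLETF values thus lay inside the LETO range. Levels were summed on the linear scale, so the most abundant, miR-150 and miR-146a, made up most of each sum. The sums therefore say little of the scarcer miRNAs of the group. Relative to the card median the sums were 8.31, 8.16 and 7.67 in OLETF, and 8.28, 8.51 and 6.66 in LETO, with LETO4 lowest. Of the erythroid list, miR-451, the red-cell miRNA, was undetermined in OLETF1, OLETF2, OLETF3 and LETO2, with a Ct of 39.0 in LETO3 and 33.7 in LETO4. miR-486, which is made in heart and skeletal muscle as well as in red cells, lay at -5.51, -5.01 and -4.57 relative to U6 in OLETF, and at -4.69, -6.37 and -4.83 in LETO, a difference of 0.27 (0.47 with the card median). The part of red cells in the differences of the group was not tested.

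**Figure D2:**
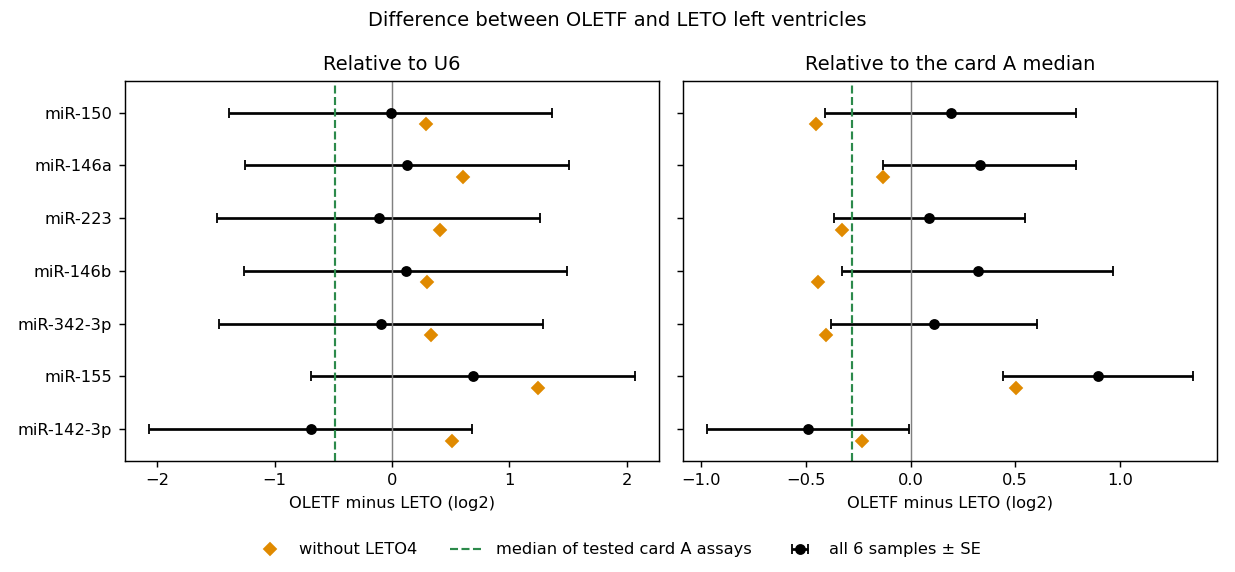
OLETF minus LETO difference in level (x axis, log2) of the 7 tested miRNAs, relative to U6 (left) and to the card A median (right). Points and bars are the limma estimate and its SE over all 6 samples, diamonds the estimate without LETO4, and the dashed line the median of the tested card A assays, at -0.49 (left) and -0.28 (right). miR-155 has the highest estimate in both panels, and without LETO4 only miR-155 stays above 0 on the right.

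miR-155 had a Ct of 28.7, 28.7 and 28.3 in OLETF1, OLETF2 and OLETF3, and of 30.6, 29.8 and 28.1 in LETO2, LETO3 and LETO4. The 3 OLETF samples lay close together, and LETO4 reached a lower Ct than all of them. Relative to U6 its level was -10.62 ± 0.50 log2 units in OLETF and -11.32 ± 1.05 in LETO (SD, n = 3 each), a difference of 0.69 (SE 1.38, limma adjusted p = 0.997; exact permutation p = 0.4). This is a ratio of 1.62, the same as in the authors' deposited table (1.62). OLETF was higher in 7 of 9 pairs of samples, and the difference ranked 6 from the top among 193 tested assays.

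Relative to the card median, miR-155 lay at 0.27, 0.28 and -0.33 log2 units in OLETF, and at -0.61, -0.24 and -1.61 in LETO. OLETF was higher in 8 of 9 pairs, and only OLETF3 and LETO3 crossed. The means were 0.074 ± 0.35 in OLETF and -0.82 ± 0.71 in LETO (SD, n = 3 each), a difference of 0.90 (SE 0.454, limma adjusted p = 0.632; exact permutation p = 0.2), or a ratio of 1.86. It ranked 8 from the top among 193. Without LETO4 the difference was 0.50 with the card median and 1.24 with U6.

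miR-142-3p, the blood-cell miRNA, had negative differences under both references, at ranks 117 and 130 of 193 from the top and near the medians of all tested assays (-0.60 and -0.31). Its Ct was 30.0, 30.1 and 27.8 in OLETF1, OLETF2 and OLETF3, and 30.2, 30.3 and 26.2 in LETO2, LETO3 and LETO4. Replicate 3 of each strain thus lay more than 2 cycles below the other samples, farther in LETO4 than in OLETF3. Relative to U6 the level was -11.38 ± 1.53 in OLETF and -10.69 ± 2.28 in LETO (SD, n = 3 each), a difference of -0.69, where limma gave an SE of 1.38 and an adjusted p of 0.997 (exact permutation p = 0.7). With the card median as reference the level was -0.69 ± 0.70 in OLETF and -0.20 ± 0.55 in LETO, a difference of -0.49 (SE 0.482, limma adjusted p = 0.688; exact permutation p = 0.3). Without LETO4 the U6 difference took the other sign (0.51), and the card-median one was -0.23. The card-median difference was also -0.23 without OLETF1 or OLETF2, and -0.93 without OLETF3.

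The other arm, miR-142-5p, was near the detection limit. It had a Ct of 33.4, 37.7 and 34.7 in OLETF1, OLETF2 and OLETF3, was undetermined in LETO2, and had a Ct of 36.9 and 31.6 in LETO3 and LETO4. Only OLETF1, OLETF3 and LETO4 were thus under the limit of 35, and no test was made. In the 5 samples with a value, the 5p arm came after the 3p arm by 3.40 to 7.61 cycles (median 6.62), the smallest gap being in OLETF1. The authors' deposited table gives miR-142-5p a ratio of 1.57, for which the undetermined LETO2 well was counted as 40 cycles. With a Ct limit of 38, which kept 3 OLETF and 2 LETO samples, its difference was -0.75 (SE 1.62) relative to U6, so the sign depended on how LETO2 was counted.

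miR-223, the myeloid miRNA, had a Ct of 25.9, 26.1 and 25.3 in OLETF1, OLETF2 and OLETF3, and of 26.5, 26.6 and 24.6 in LETO2, LETO3 and LETO4. The OLETF samples lay inside the LETO range. The difference was -0.11 (SE 1.38) relative to U6 and 0.090 (SE 0.457) relative to the card median, with exact permutation p-values of 1 and 0.8.

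Both lymphocyte miRNAs showed small differences as well. miR-150, the most abundant of the group, had a Ct of 21.2, 21.5 and 21.2 in OLETF and of 22.5, 21.5 and 20.7 in LETO2, LETO3 and LETO4. Its OLETF samples spanned less than the SD of a single well on card B, while the LETO samples lay on both sides of them. The difference was -0.012 (SE 1.38) relative to U6 and 0.19 (SE 0.598) relative to the card median. miR-342-3p had a Ct of 26.5, 26.9 and 25.8 in OLETF and of 27.3, 26.9 and 25.4 in LETO. Its difference was -0.092 (SE 1.38) relative to U6 and 0.11 (SE 0.491) relative to the card median. The exact permutation p for miR-150 was 1 with U6 and 0.9 with the card median, and for miR-342-3p 0.9 and 1.

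The miR-146 pair differed in abundance more than between the strains. miR-146a had a Ct of 22.6, 22.5 and 21.6 in OLETF1, OLETF2 and OLETF3, and of 23.4, 23.1 and 21.4 in LETO2, LETO3 and LETO4. miR-146b had a Ct of 25.8, 26.4 and 25.8 in OLETF, and of 27.0, 26.5 and 25.7 in LETO. Although the 2 share a seed, miR-146a came first in 6 of 6 samples, by 3.76 ± 0.51 cycles in OLETF and 3.75 ± 0.53 in LETO (SD, n = 3 each). That distance differed by 0.0095 between the strains (exact permutation p = 1). The difference of miR-146a was 0.13 (SE 1.38) relative to U6 and 0.33 (SE 0.461) relative to the card median, and that of miR-146b 0.12 (SE 1.38) and 0.32 (SE 0.647). Exact permutation p-values were 0.9 under both references for miR-146a and 0.8 under both for miR-146b. The SE of 1.38, alike for all 7 with U6, is the spread that limma shares over assays and not that of 1 miRNA.

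In the authors' deposited table the ratios of OLETF over LETO were 0.619 for miR-142-3p, 0.925 for miR-223, 0.992 for miR-150, 1.09 for miR-146a, 1.09 for miR-146b and 0.938 for miR-342-3p. Of the 7 tested, miR-142-3p and miR-155 were thus the farthest from 1 there, in opposite directions.

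LETO4 decided the sign of several of these differences with the card median. There, miR-150, miR-146a, miR-223, miR-146b and miR-342-3p had positive differences over all samples and negative ones without LETO4 (-0.45, -0.13, -0.33, -0.44 and -0.40). Between the samples numbered 3, OLETF3 and LETO4, 6 of 7 miRNAs were higher in OLETF with a median of 1.05. Between those numbered 1, 3 of 7 were higher with a median of -0.22, and between those numbered 2, 3 of 7 with a median of -0.36. miR-155 was higher in OLETF in all 3 of these sample pairs (0.88, 0.53 and 1.28), and miR-142-3p lower in all 3 (-0.90, -0.36 and -0.20). Relative to U6 the counts were 1, 7 and 3 of 7 for the numbers 1, 2 and 3. Shares over all assays were not counted for these sample pairs, and the numbers were not taken to pair the rats. With U6 the sign also turned when samples other than LETO4 were left out singly. It turned for miR-150, miR-223 and miR-342-3p without OLETF1, OLETF2 or LETO2, and for miR-146a and miR-146b without OLETF3 or LETO3.

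**Figure D3:**
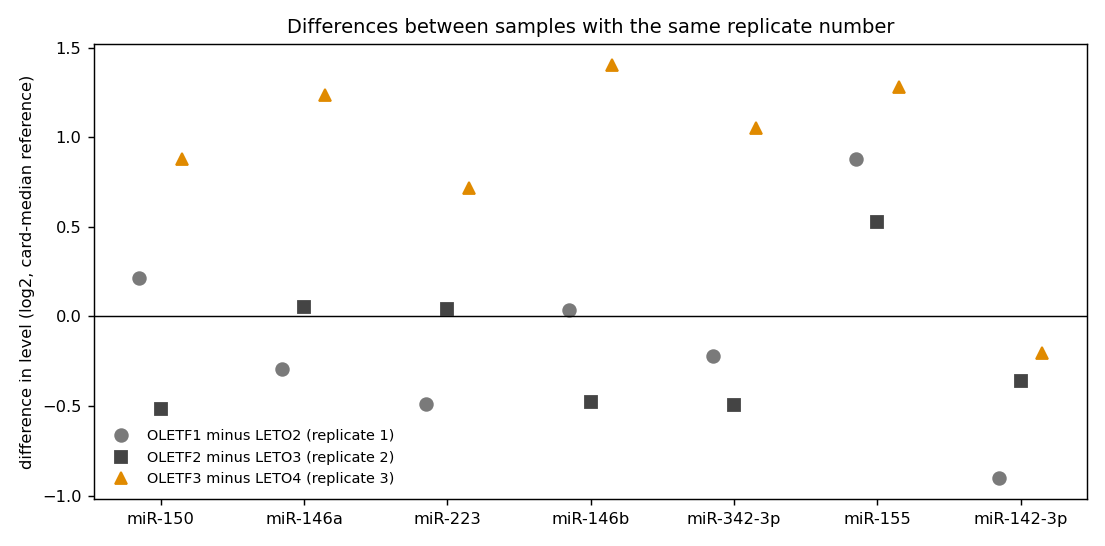
Difference in card-median level (y axis, log2) between the OLETF and LETO samples that carry the same replicate number, for the 7 miRNAs measured in all samples. The triangles, OLETF3 minus LETO4, lie between 0.72 and 1.40 for every miRNA but miR-142-3p (-0.20), while the other symbols reach at most 0.21 except for miR-155.

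The shift of LETO4 differed between the miRNAs of the group. Over the 122 card A assays its Ct minus the mean of LETO2 and LETO3 had a median of -3.30 cycles and ran from -5.36 to -0.57. For miR-146b the difference was -0.98 and for miR-150 -1.34, ranks 119 and 112 of 122 from the most negative. For miR-342-3p, miR-146a, miR-223 and miR-155 it was -1.73, -1.88, -2.02 and -2.09, ranks 109, 108, 101 and 99. miR-142-3p, at -4.05, stood at rank 23. Thus 6 of the 7 shifted less in LETO4 than the median assay, which places them low in that sample once the card median is taken out. The cause of the shift was not tested.

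**Figure D4:**
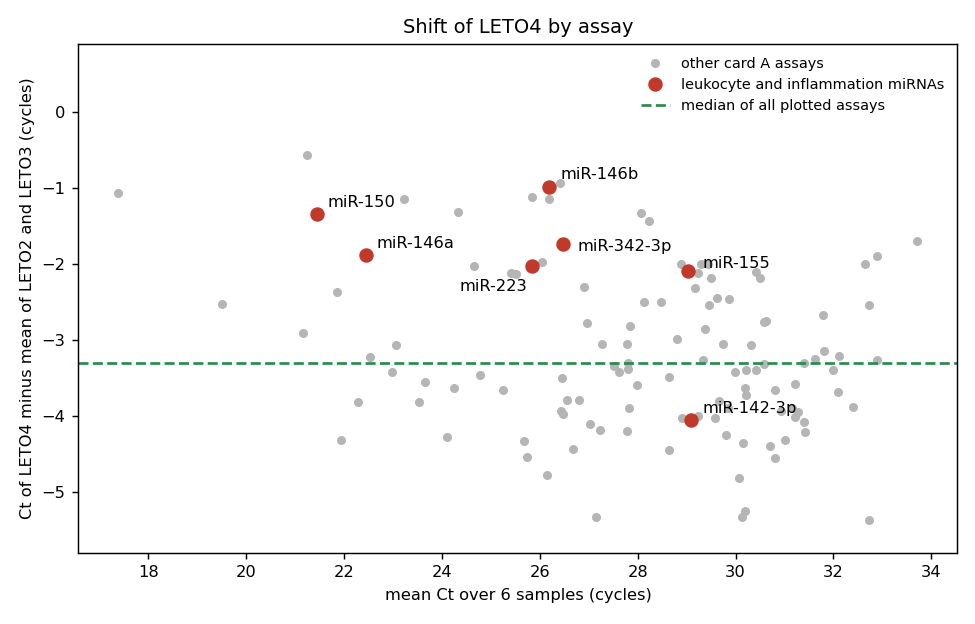
Ct of LETO4 minus the mean Ct of LETO2 and LETO3 (y axis, cycles) against the mean Ct over 6 samples (x axis, cycles) for 122 card A assays. The 7 leukocyte and inflammation miRNAs are in red and the dashed line is the median of all plotted assays, at -3.30; 6 of the 7 lie above it and miR-142-3p, at -4.05, below.

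The spread of the unreferenced Ct restates this in part, since the distance of LETO4 enters the SD within its group. The SD within groups was 0.504 cycles for miR-146b and 0.657 for miR-150, ranks 4 and 8 from the lowest of 122, against a median of 1.51 over all card A assays. It was 0.820 for miR-342-3p, 0.875 for miR-223, 0.876 for miR-146a and 0.925 for miR-155, and 1.88 for miR-142-3p (rank 102). Relative to U6, miR-150 had the lowest SD of the 122 assays (0.513). Relative to the card median the order turned, and miR-146b and miR-150 had SDs of 0.992 and 0.889 (ranks 115 and 108), against a median of 0.555.

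Ratios between miRNAs of the same card need no reference. Over the 21 pairs among the 7, the strains did not overlap for 3, or 14.3%, against 13.8% of all 7381 pairs of card A assays, so the share was near the background. All 3 held miR-155. The ratio of miR-155 to miR-223 was -2.72, -2.66 and -2.99 log2 units in OLETF, and -4.09, -3.15 and -3.55 in LETO, a difference of 0.81. That of miR-155 to miR-342-3p differed by 0.78, from means of -2.15 ± 0.34 in OLETF and -2.94 ± 0.32 in LETO (SD, n = 3 each). That of miR-155 to miR-146a differed by 0.56, and OLETF3 (-6.68) and LETO3 (-6.69) all but met. Each of the 3 had an exact permutation p of 0.1, the smallest that 3 against 3 samples allow. Groups of 3 that do not overlap always give this p, so it adds nothing to the lack of overlap. The 3 ratios also share the same miR-155 values, and miR-155 was in 6 of the 21 pairs.

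The widest difference among the 21 was that of miR-155 over miR-142-3p, at 1.38, but its groups overlapped. It was 1.31, 1.41 and -0.44 in OLETF1, OLETF2 and OLETF3, and -0.47, 0.53 and -1.93 in LETO2, LETO3 and LETO4, so OLETF was higher in 8 of 9 pairs (exact permutation p = 0.2). The 15 pairs without miR-155 all overlapped. Among them, the ratio of the myeloid miR-223 to the lymphocyte miR-150 was -4.45 ± 0.36 log2 units in OLETF and -4.34 ± 0.64 in LETO (SD, n = 3 each; exact permutation p = 0.9).

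**Figure D5:**
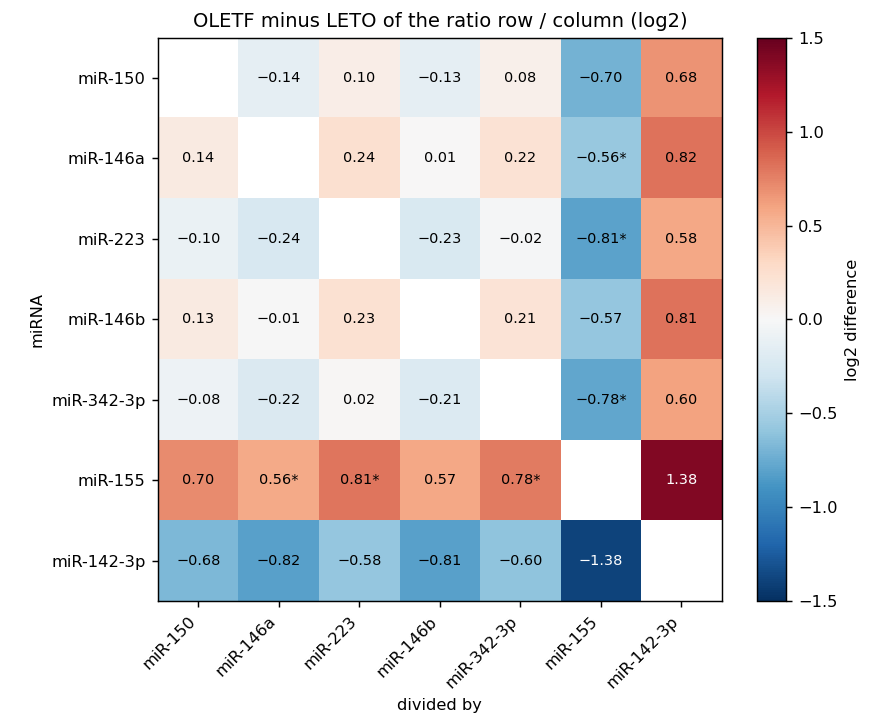
OLETF minus LETO difference (colour and number, log2) in the ratio of the row miRNA to the column miRNA within a sample, for the 7 measured in all samples. Asterisks mark pairs whose strains do not overlap; they are the ratios of miR-155 to miR-146a (0.56), miR-223 (0.81) and miR-342-3p (0.78).

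The profile of the group across samples was most like that of miR-17. Likeness was the root mean square difference of levels relative to the card median, each centred on its mean over the 6 samples, with no test. For the mean of the 7, the closest of 155 other assays were miR-17 (0.13 log2 units), miR-23b (0.19) and miR-139-5p (0.21). Taken singly, miR-146a and miR-223 were also closest to miR-17 (0.12 and 0.17), miR-150 to miR-146b (0.21), miR-146b to miR-191 (0.18), miR-342-3p to miR-339-3p (0.10) and miR-155 to miR-16 (0.23). The closest to miR-142-3p was miR-145 (0.14), a smooth muscle miRNA. On this scale LETO4 was the lowest sample for 6 of the 7, while miR-142-3p was highest in LETO4 and next in OLETF3. All likenesses share the same samples and card median.

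Other miRNAs known from leukocytes or inflammation were taken from a list of 18 names, of which 16 had an assay and 12 were tested. Of the 12, 0 passed an adjusted p of 0.05 (limma), 4 lay higher and 8 lower in OLETF relative to U6 (median -0.53), and 5 higher and 7 lower relative to the card median (median -0.33). The most abundant were miR-24 (-0.074 with U6 and 0.13 with the card median) and miR-125b-5p (-0.51 and -0.31). Those with the smallest p relative to U6 were miR-187, induced by interleukin 10 in human monocytes, and miR-181a, which tunes T cell receptor signalling. miR-187 differed by 1.41 (SE 1.54) from 3 OLETF and 2 LETO samples, and miR-181a by -1.26 (SE 1.38). With the card median miR-187 differed by 1.78 (SE 0.988), and miR-181a by -1.06 (SE 0.351) with a limma adjusted p of 0.608. The strains did not overlap there for miR-181a (-3.23, -3.82 and -3.46 in OLETF, and -2.50, -2.38 and -2.46 in LETO). Of the 162 assays measured in all samples, 9.26% separated with OLETF lower. Its unadjusted limma p was 0.016, against 6.22% of tested assays under 0.05, and miR-181a was named for its small p.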

How the data were processed

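MicroRNAs were measured by RT-qPCR on 2 TaqMan rodent cards, per the labels' protocols, although a label field names SYBR Green. The deposited tables hold Ct values in cycles per well, delta Ct on a log2 scale against U6, and a ratio of OLETF over LETO. For the 8 miRNAs, recomputed delta Ct differed from the authors' deposited values by at most 3e-06, with undetermined wells counted as 40.

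A Ct of 35 or more counted as not measured. The card median was taken over assays measured in every sample of a fit. Strains were compared with limma 3.58.1 in R 4.3.3 (two-sided, Benjamini-Hochberg over 193 assays) and with two-sided exact permutation tests. The limma fit was tested on simulated data with larger differences than those of the members and no shift like that of LETO4. That test does not tell how well differences of the size seen here would be found. The members and lists were chosen with earlier results of these data known. Named miRNAs were the 8, the closest profiles and, from the list of other leukocyte miRNAs, the 2 most abundant and the 2 with the smallest p. The authors' deposited card B ratios were matched in 380 of 380 wells when replicate 3 of each strain entered as the mean of its determined wells, and in 194 otherwise, so replicate 3 was also fitted as a block. Names without an arm were matched to the guide strand in RefSeq.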

Additional observations from a re-analysis of the deposited data

How the results depend on the processing

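miR-155 lay above 0 in all 18 alternatives to the U6 fit (0.20 to 1.54) and all 14 with the card median (0.50 to 1.30). The value of 1.54 came with other small RNA controls in place of U6, and with U6 the highest was 1.24, without LETO4. All used the same samples, and some could not move the value. Relative to U6 it stayed at 0.69 under the other Ct limits and with either block. Relative to the card median it stayed at 0.90 with either block. The unadjusted limma p of miR-155 fell under 0.05 under a whole-array median (1.18), as it did for 17 of 193 assays. With the card median it did so at a Ct limit of 32 (1.12, with 7 of 128 assays) and without LETO3 (1.30, with 18 of 184). It also did so with the replicate block (0.90, with 24 of 193 assays) and with replicate 3 as a block (0.90, with 24 of 193). The smallest adjusted limma p of miR-155 was 0.277. The count of assays at adjusted p under 0.05 stayed at 0 (limma; 0 to 30 at an unadjusted p) except for 1 with U6 and the replicate block and 1 with U6 and replicate 3 as a block, which was none of the 8 miRNAs; the cause was not tested. The replicate block changed no other call. Deviations of same-numbered samples correlated at -0.088, 0.23 and 0.62 on the U6 scale and at 0.094, 0.22 and 0.50 on the card-median scale, and the rats were not treated as paired.

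The median over members was 0.84 when the remaining small RNA controls replaced U6, against -0.012; the cause was not tested. There the differences of miR-142-3p (0.16), miR-150 (0.84), miR-223 (0.74) and miR-342-3p (0.76) took the other sign. So did those of miR-150, miR-223 and miR-342-3p under a whole-array median (0.47, 0.37 and 0.39) and with U6 pooled over both cards (0.10, 0.0013 and 0.022), and those of miR-150 (0.11) and miR-223 (0.035) with U6 within replicates 1 and 2. With the card median within replicates 1 and 2, 5 turned negative: miR-146a (-0.17), miR-146b (-0.27), miR-150 (-0.20), miR-223 (-0.27) and miR-342-3p (-0.41). With 1 sample left out and U6, the ranges were -1.76 to 0.51 for miR-142-3p, -0.46 to 0.61 for miR-146a, -0.28 to 0.34 for miR-146b, -0.36 to 0.29 for miR-150, -0.83 to 0.41 for miR-223 and -0.65 to 0.34 for miR-342-3p. With the card median the range was -0.93 (without OLETF3) to -0.23 for miR-142-3p. It was -0.13 to 0.65 for miR-146a, -0.44 to 0.82 for miR-146b, -0.45 to 0.74 for miR-150, -0.33 to 0.49 for miR-223 and -0.40 to 0.45 for miR-342-3p, these 5 being negative only without LETO4. The median over members ran from -0.46 to 0.41 with U6, where 1 (without OLETF3 or LETO3) to 7 (without LETO4) of 7 were positive, and from -0.33 to 0.64 with the card median. Members measured in all samples numbered 7 at Ct limits of 32, 35 and 38. Single wells limit differences of this size. The SD of 0.486 cycles per well was measured on card B and not for these assays.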

Other observations

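Assays for the opposite strands of miR-342-3p, miR-146b and miR-150 gave no Ct under 35. miR-342-5p was determined in 3 of 6 wells, at a Ct of 37.0 to 37.9. miR-146b* was determined in 1 of 12 wells (Ct 39.1) and miR-150* in 0 of 12.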
